A study of Mus musculus with 30 samples.

Results

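The 200 genes described here were those whose level differed least among 15 adult mouse tissues. They were chosen from 3411 genes of a table of 25030, the genes that have a symbol in the probe lists of the study and a tissue signal well above background on all 30 arrays. The tissue mean of a gene was the mean of its 2 arrays, and the 200 genes with the lowest standard deviation (SD) of the 15 tissue means were taken. The SD among tissues is therefore the measure that chose these genes, and it is given below as a description, without a test. The names came from lists of the study that were held here only in part. The parts held favour genes with little response to transcription factors, which bears on which genes could be chosen. One of them, from the study's list of responsiveness beside tissue specificity, is called here the list of the least responsive genes. It named 179 of the 200 genes (89.5%), against 57.5% of the 3411.

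The arrays were made to set the tissue specificity of genes beside their response to transcription factors in embryonic stem (ES) cells. Male C57BL/6 mice, whose age the labels give as 28 weeks (the methods of the study state another) and for which no treatment is named, supplied 2 arrays each of cerebellum, brain cortex, eyes, heart, muscle, bone, fat, skin, lung, liver, kidney, bladder, stomach, small intestine and large intestine. Each array carried tissue RNA in Cy3 and the same reference in Cy5, a mixture of RNA pooled from 11 cultured mouse cell lines and RNA of 129ES cells, as the labels name them. The methods of the study state, without exception, that replicates came from different animals. The series description names a single replication for bone and fat, so the sources differ there, and the spread of their 2 arrays may be technical. A tissue holds many cell types, and in such bulk RNA fewer cells of a type and less RNA per cell cannot be told apart. Of 20 tissue markers, 14 were highest in the tissue they mark. The other 6 were Cntn2, Abca3, Actn3, Myl1, Alpi and Acp5, of which the muscle genes Actn3 and Myl1 were higher in bone and in heart respectively, and fat and bladder had no marker on the list. The arrays of fat, bone and large intestine stood apart: the correlation between replicates across 11751 genes was 0.756, 0.872 and 0.758 there and 0.955 to 0.995 in the other 12 tissues.

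Genes expressed at a like level in all tissues are often called housekeeping genes. They serve work that every cell has to do, such as transcription by RNA polymerase II, removal of introns, packing of DNA and breakdown of proteins by the proteasome. Many of them are transcribed from promoters rich in CpG dinucleotides, which often lack a TATA box and hold sites for broadly expressed factors such as those of the ETS family. Genes of this kind serve as internal standards when expression is compared between tissues, although standards that hold in one tissue can fail in another.

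The promoters of the 4 most even genes are shown, chosen by the rank of their SD. These promoters differ in the features for which promoters of housekeeping genes are known. Each is the 200 bases before the annotated start in RefSeq (GRCm38.p6), read 5′ to 3′ on the strand of the gene. Capitals mark the ETS core CCGGAAG or CTTCCGG on the other strand, the GC box GGGCGG or CCGCCC, the CCAAT box CCAAT or ATTGG, and the TATA box TATAAA or TTTATA. They lie at chr9:20642678-20642877 (plus strand) for Ubl5, chr14:75754494-75754693 (minus strand) for Cog3, chr3:94886959-94887158 (minus strand) for Psmb4 and chr8:84270403-84270602 (minus strand) for Ccdc130.
Ubl5: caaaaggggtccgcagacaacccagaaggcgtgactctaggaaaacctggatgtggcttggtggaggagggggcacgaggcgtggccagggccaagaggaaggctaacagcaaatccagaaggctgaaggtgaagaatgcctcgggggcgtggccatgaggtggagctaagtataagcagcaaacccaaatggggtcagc
Cog3: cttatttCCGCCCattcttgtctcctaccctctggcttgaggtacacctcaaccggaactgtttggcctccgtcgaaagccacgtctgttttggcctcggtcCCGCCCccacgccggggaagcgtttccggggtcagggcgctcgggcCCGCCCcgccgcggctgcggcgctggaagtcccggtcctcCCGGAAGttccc
Psmb4: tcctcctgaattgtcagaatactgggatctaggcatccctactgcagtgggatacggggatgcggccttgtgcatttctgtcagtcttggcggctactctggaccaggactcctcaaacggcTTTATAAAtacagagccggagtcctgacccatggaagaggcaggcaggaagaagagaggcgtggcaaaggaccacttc
Ccdc130: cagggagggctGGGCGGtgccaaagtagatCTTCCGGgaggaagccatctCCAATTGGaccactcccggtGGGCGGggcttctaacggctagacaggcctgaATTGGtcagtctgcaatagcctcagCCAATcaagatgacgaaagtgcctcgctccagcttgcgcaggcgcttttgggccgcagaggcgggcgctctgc
Cog3 held 3 GC boxes and 1 ETS core, the latter with its first base 12 bases before the start, among 21 CpG dinucleotides. Ccdc130 held 1 ETS core, 2 GC boxes and 4 matches to the CCAAT box, of which CCAAT and ATTGG overlap at 1 place, and 12 CpG. Psmb4 held neither an ETS core nor a GC box in this window but TTTATA and TATAAA, which overlap, with 6 CpG. The first bases of TTTATA and TATAAA lay 78 and 76 bases before the start. That is farther from it than the window in which the study counted a TATA box. The stretch before Ubl5 held none of the 4 motifs and 6 CpG. A match to such letters is a description of the sequence, and no binding was measured here.

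Levels are given as log2 of the Cy3 signal in scanner units after the authors' adjustment for the reference, so a difference of 1 is a 2-fold difference. Levels of different genes come from different probes and are not compared. Ubl5, a small ubiquitin-like protein that takes part in splicing, had the lowest SD among tissues (0.14). Its 2 arrays read 15.61 and 15.58 in brain cortex, 15.43 and 15.54 in cerebellum, 15.41 and 15.62 in eyes, 15.43 and 15.45 in lung, 15.31 and 15.63 in liver, 15.74 and 15.75 in heart, 15.65 and 15.64 in kidney, and 15.29 and 15.42 in bladder. They read 15.49 and 15.50 in muscle, 15.57 and 15.51 in skin, 15.79 and 15.91 in small intestine, 15.51 and 15.47 in stomach, 15.78 and 15.83 in large intestine, 15.80 and 15.15 in fat, and 15.57 and 15.55 in bone. The highest tissue mean, in small intestine, was 1.41-fold the lowest, in bladder, while the 2 fat arrays alone lay farther apart than that.

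Cog3, a subunit of the conserved oligomeric Golgi complex that tethers vesicles within the Golgi, had an SD of 0.152. Its tissue means ran from 11.98 in muscle through a median of 12.17 to 12.45 in stomach. Its evenness in 2 tissues rested on averaging: the large intestine arrays read 12.85 and 11.51, the highest and the lowest of all 30, and the fat arrays 12.44 and 11.52. In the tissues other than large intestine, fat and bone, the 2 arrays of Cog3 differed by far less, as in stomach (12.46 and 12.44) and skin (12.36 and 12.32). Psmb4, a beta subunit of the 20S proteasome core, had an SD of 0.177, from 16.21 in heart through a median of 16.56 to 16.76 in liver, a 1.45-fold range. Its arrays read 16.23 and 16.20 in heart and 16.84 and 16.67 in liver, the extremes of 15 tissues. Ccdc130, a coiled-coil protein, had an SD of 0.181 and ran from 12.67 in kidney through 12.80 to 13.18 in lung.

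**Figure D1:**
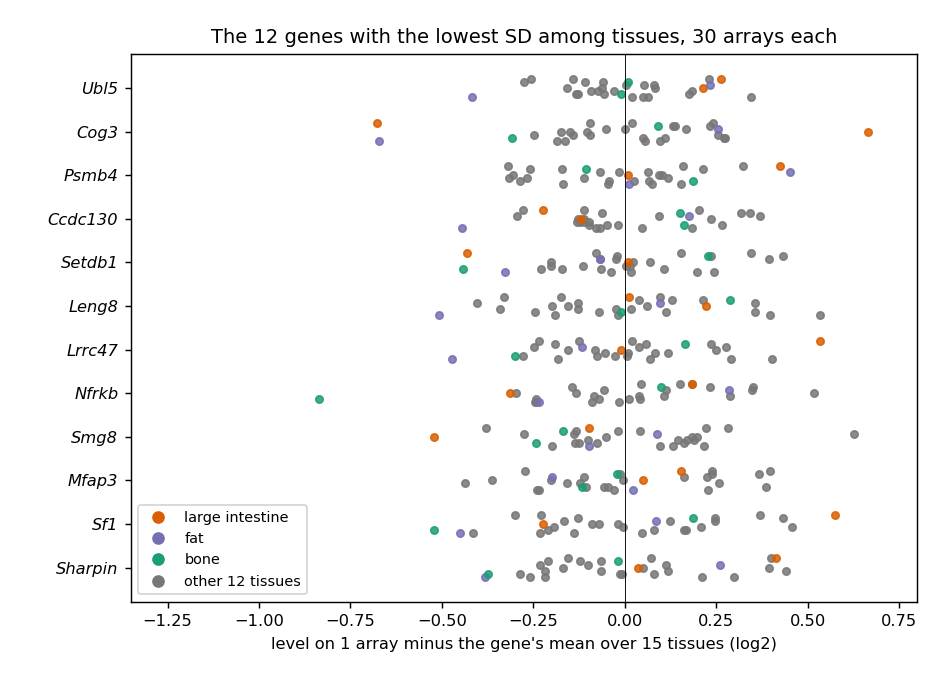
Level on each of the 30 arrays minus the mean of the gene over the 15 tissues (log2, horizontal axis) for the 12 genes with the lowest SD among tissues. Each point is 1 array, coloured for large intestine, fat and bone and grey for the other 12 tissues; for 11 of the 12 genes the lowest or the highest array came from the 3 coloured tissues.

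The next 8 genes had SDs between 0.184 and 0.209. Setdb1, which methylates lysine 9 of histone H3, had tissue means between 11.06 in large intestine and 11.69 in skin, with a median of 11.24. Nfrkb, a subunit of the INO80 chromatin remodelling complex, had means between 10.10 in bone and 10.87 in muscle (median 10.40), and its bone arrays read 10.57 and 9.63, the latter the lowest of the 30. Smg8, which regulates the kinase that acts in nonsense-mediated mRNA decay, ran from 12.62 in large intestine to 13.33 in eyes (median 12.93). Sf1, the splicing factor that binds the branch point of introns, ran from 12.27 in small intestine to 12.94 in bladder (median 12.49). Sharpin belongs to the complex that builds linear ubiquitin chains. Its means ran from 14.14 in heart to 14.81 in muscle (median 14.34). Mfap3, named as a microfibril-associated protein, ran from 11.93 in muscle to 12.71 in lung (median 12.28), with muscle arrays of 11.90 and 11.97 and lung arrays of 12.72 and 12.70. Lrrc47, a leucine-rich repeat protein, had a median of 13.63, with its lowest mean in fat (13.35) and its highest in brain cortex (arrays 13.94 and 14.05). Leng8 ran from 11.35 in stomach to 11.96 in small intestine (median 11.58). The highest tissue mean was between 1.39-fold and 1.71-fold the lowest in these 12 genes, and the lowest or the highest array came from fat, bone or large intestine in 11 of the 12.

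Over all 200 genes the SD among tissues lay between 0.14 and 0.316 with a median of 0.275, against a median of 0.613 over the 3411 genes. These values and the list depend on the measure: from the Cy3 signal alone, without the adjustment for the reference, the median SD of the 200 was 0.435 and a list chosen anew shared 67 genes with them, and by the median absolute deviation of the adjusted values it shared 78. The distance between the lowest and the highest tissue mean had a median of 0.956 (log2) and was under 1 in 122 of the 200 genes (61.0%), against 3.81% of the 3411. The widest was that of Zfp868, a zinc finger protein, with means of 10.08 in large intestine and 11.58 in cerebellum, a 2.83-fold difference. That width rested on 1 array: the large intestine arrays read 10.82 and 9.33 and the cerebellum arrays 11.57 and 11.59, so without large intestine replicate 2 cerebellum was 1.69-fold higher. The limit fell within a continuous distribution. Nkap, a transcriptional repressor in Notch signalling, Marchf7, a ubiquitin ligase, and Kdm1a, the lysine-specific histone demethylase, were just inside it with an SD of 0.316 each. Rtel1, a DNA helicase of telomeres, Eif3h, a translation initiation factor, and Ints11, the catalytic subunit of the Integrator complex, were just outside with 0.317 each. Only named genes could be chosen: among all 11822 genes above background on all arrays, 152 without a name ranked ahead of the last of the 200, and 122 of the 200 (61.0%) were among the 200 lowest of that larger set.

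**Figure D2:**
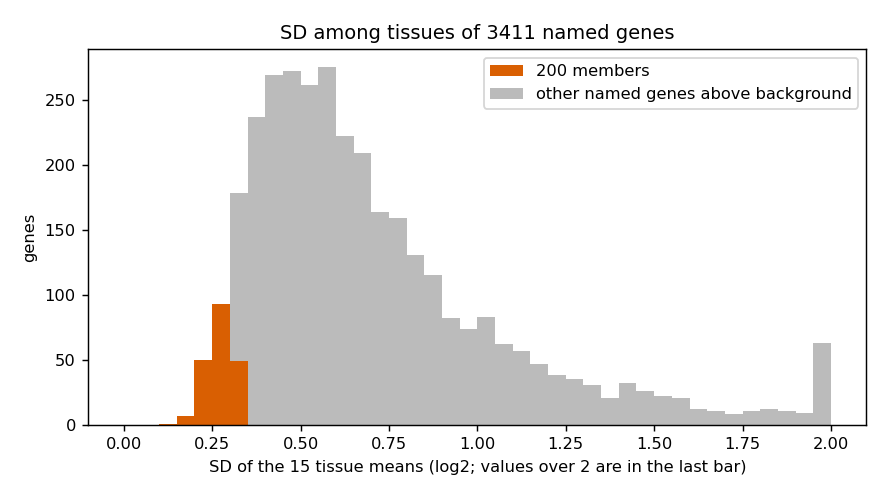
Distribution of the SD of the 15 tissue means (log2, horizontal axis) over the 3411 genes that could be chosen, with the 200 chosen genes (the members) shown in colour, and with the number of genes per bar on the vertical axis. The chosen genes occupy the lower tail up to 0.316, and the median over all 3411 is 0.613.

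The spread between replicates was small beside these values except in 3 tissues. The SD between the 2 arrays of a tissue, taken as the median over tissues, had a median of 0.092 over the 200 genes and 0.118 over the 3411. By tissue the median over the 200 genes was 0.404 in large intestine, 0.234 in both fat and bone, and between 0.049 and 0.116 in the others. Over the 3411 genes it was 0.641 in large intestine, 0.349 in fat, 0.252 in bone, and between 0.059 and 0.145 in the others. The 2 arrays of large intestine differed by more than 1 (log2) in 45 of the 200 genes, those of fat in 7 and those of bone in 4, while in no other tissue was that so for more than 1 gene. The lowest array of a gene came from one of these 3 tissues in 107 genes and the highest in 92. Neither these counts nor those of differences over 1 are given over the 3411 genes. The spread in large intestine came mostly with its replicate 2, on which the middle quartiles of the 200 genes ran from -0.34 to 0.61 around each gene's mean, against -0.22 to 0.07 on replicate 1. Without these tissues, 177 of the 200 genes were still at or under 0.316, their median SD was 0.263, and 131 were among the 200 lowest chosen anew over 12 tissues.

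**Figure D3:**
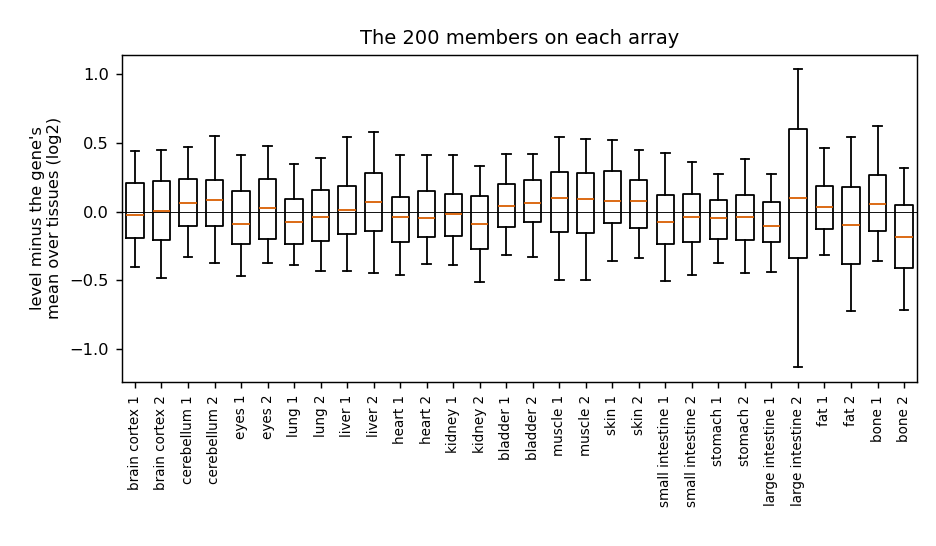
Level of the 200 genes (the members) on each of the 30 arrays, along the horizontal axis, as the deviation from each gene's mean over the 15 tissues (log2, vertical axis), with a line at the median, a box over the middle quartiles and whiskers from the 5th to the 95th percentile. The box of large intestine replicate 2 is the widest, from -0.34 to 0.61, and the median of bone replicate 2 is the lowest, at -0.19.

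In a limma F-test over the 15 tissues, 141 of the 200 genes passed an adjusted p of 0.05, where the percentage of all 21025 genes tested that passed was 90.7 and that of the 3411 was 95.5. The same tissues chose the genes, so this count is printed as a description only. Among the 12 genes with the lowest SD, 4 passed. Without the arrays of fat, bone and large intestine 195 of the 200 passed, beside 95.1% of all genes tested and 99.4% of the 3411, and with the authors' table values 111 passed, beside 93.6% and 93.8%. Leaving out 1 array at a time gave between 123 (without replicate 2 of muscle) and 181 (without replicate 1 of large intestine), beside 93.1% and 98.7% of the 3411.

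The 6 genes with the largest F statistic are given by their arrays, and a large F itself selects genes whose replicates lie close together and whose tissues differ. Brk1, the smallest subunit of the WAVE complex that drives actin branching, read 15.34 and 15.38 in brain cortex and 14.23 and 14.21 in muscle. Its fat arrays (15.14 and 15.47) overlapped those of brain cortex. Snrpa1, the U2 small nuclear ribonucleoprotein A′, read 13.80 and 13.73 in cerebellum, 13.66 and 13.65 in eyes, and 12.91 and 12.57 in large intestine. Nbas, which acts in transport from the Golgi back to the endoplasmic reticulum, read 13.76 and 13.78 in cerebellum and 12.69 and 12.96 in bone. Elob, the elongin B subunit, read 15.45 and 15.73 in brain cortex and 14.53 and 14.62 in heart. Trmu, which modifies mitochondrial transfer RNAs, read 13.73 and 13.80 in heart and 12.74 and 12.92 in small intestine. Nedd8, the ubiquitin-like protein attached to cullins, read 14.89 and 15.30 in fat, 15.11 and 15.05 in eyes, and 14.37 and 14.22 in small intestine. Brain cortex, cerebellum or fat was thus the highest tissue in 5 of these 6 genes and heart in Trmu, whereas the lowest was small intestine in Trmu and Nedd8 and a different tissue in each of the others.

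The tissues of the highest and lowest means were mixed. Liver had the highest mean in 26 of the 200 genes, muscle in 25, skin in 19 and large intestine in 19. Large intestine had the lowest mean in 27, muscle in 19 and small intestine in 19, so muscle and large intestine stood near the top of both counts. Over the 3411 genes the highest mean was in liver for 11.9%, in muscle for 16.4%, in skin for 4.37% and in large intestine for 7.18%, and the lowest was in large intestine for 19.5%, in muscle for 9.0% and in small intestine for 6.45%.

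The 200 genes were read against 14 lists of genes by cellular role, in which 79 of them (39.5%) had a place. Of the 3411 genes, 5.86% were chosen, and the share in a list is read beside that figure as a description. Splicing and mRNA processing gave the largest number, 26 of 117 genes (22.2%), with a median SD of 0.405 over the list. Sf1 had the lowest SD of its members at 0.209, followed by Exosc2, a subunit of the RNA exosome, at 0.211 and Ddx42, an RNA helicase of the spliceosome, at 0.213. Also among them were Snrpa of the U1 particle (0.218), Sf3a2 (0.248), Sf3a3 (0.258) and Sf3b4 (0.29) of the U2 particle, and U2af2 (0.274), which binds the tract before the 3′ splice site. The tissue with the highest mean varied within this group, with brain cortex for Snrpa, bladder for Ddx42, cerebellum for Sf3b4 and skin for Exosc2.

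The list of RNA polymerase II machinery, gathered by gene symbol, gave 14 of 59 genes (23.7%), with a list median of 0.40. Its 14 include Gtf3c2 (0.304), a subunit of a factor that serves RNA polymerase III. Polr2j, a subunit of the polymerase, had an SD of 0.217 and means from 14.04 in small intestine to 14.66 in heart. Ccnt1, the cyclin of the elongation factor P-TEFb, had 0.224 and Med20 of the Mediator complex 0.228. The Mediator subunits Med6 (0.244), Med17 (0.279), Med22 (0.284) and Med26 (0.281) were chosen as well. Chromatin proteins gave 10 of 55 genes (18.2%), led by Setdb1 (0.184), Cxxc1, a CpG-binding subunit of a histone methyltransferase complex (0.232), and Chd4, the ATPase of the NuRD complex (0.28).

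Of the proteasome, 6 of 30 genes (20%) were chosen. Besides Psmb4 they included Psma7 (0.251), an alpha subunit whose means ran from 15.92 in bladder to 16.92 in fat, and Adrm1 (0.285), a ubiquitin receptor of the regulatory particle. Fat replicate 1 read 17.38 for Psma7, the highest of the 30 arrays, so its fat mean rested in part on that array. The list of ubiquitin enzymes, gathered by gene symbol, also took in the modifier Nedd8 and the ubiquitin-associated proteins Ubac2 and Ubap2l. It gave 10 of 94 (10.6%), with Rnf20, a ligase for histone H2B, lowest at 0.228, then Trim41 at 0.255 and Fbxo38 at 0.256. Zinc finger proteins gave 6 of 73 (8.22%), among them Zc3h10 (0.258), Zfp212 (0.275) and Zmat2 (0.292). Vesicle transport gave 6 genes (5.94% of the list), a share near that of all genes, and these included Cog3, Vps16 (0.231) of the tethering complexes at late endosomes, and Vps35l (0.238) of the retriever complex. Translation factors gave 2 of 46 (4.35%), Eif2b5 (0.272) and Eif3d (0.275), and the mitochondrial ribosome 1 of 40 (2.5%), Mrpl40 (0.296).

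In 4 lists no gene was among the 200. Those were the cytosolic ribosome (28 genes, median SD 0.613), the respiratory chain (67 genes, 0.799), the solute carriers and ABC transporters (52 genes, 0.878), and cell division (47 genes, 0.824). The lowest SD was 0.345 for Rpl35a in the first, 0.439 for Ndufaf7 in the second, 0.351 for Slc37a3 in the third and 0.351 for Gins4 in the last.

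Since the names favour genes of little response, the shares were also taken over the 1961 genes named by the list of least responsive genes, a restriction chosen after the data were seen. There the 200 genes made up 9.13% of all, 23% of the splicing genes, 25.5% of the RNA polymerase II genes, 19.6% of the chromatin proteins and 17.9% of the proteasome. The share was 13.2% in the ubiquitin list, 11.3% in the zinc finger proteins, 5.68% in vesicle transport, 5.41% in the translation factors and 2.78% in the mitochondrial ribosome, so vesicle transport, near the share of all genes before, was below it here. The 4 lists without a chosen gene still had none. Of the 1450 genes named elsewhere, 1.45% were chosen.

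**Figure D4:**
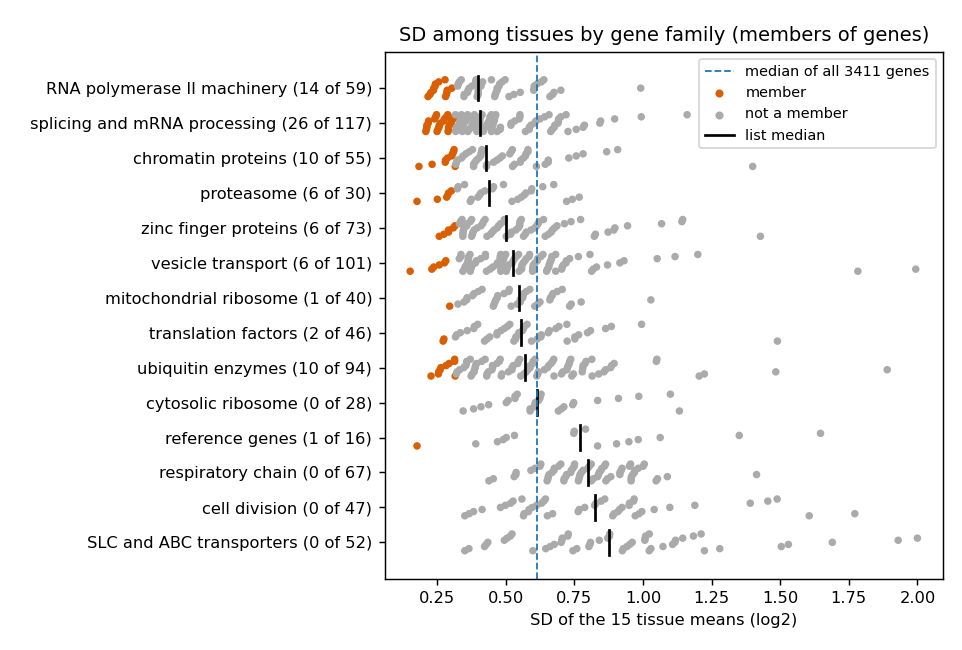
SD of the 15 tissue means (log2, horizontal axis) of every gene of 14 lists, each point 1 gene, with the chosen genes (the members) in colour, a bar at the median of each list and a dashed line at 0.613, the median over 3411 genes. The RNA polymerase II, splicing, chromatin and proteasome lists have the lowest medians, and 4 lists hold no chosen gene.

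A list of 16 genes widely used as standards for expression held 1 of the 200, Psmb4. Tbp, the TATA-binding protein, came next at an SD of 0.391 and rank 525 of 3411, then Rab7, a small GTPase of late endosomes (0.47), and Ipo8, a nuclear import receptor (0.491). Actb and Actg1, the cytoplasmic actins, had SDs of 1.351 and 1.647, with Actb lowest in muscle and highest in large intestine. Ppia, the prolyl isomerase cyclophilin A, had 0.904. The median over the 16 genes was 0.77, above the 0.613 of all 3411.

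The level against the reference was not used to choose the genes. The mean of log2(Cy3/Cy5) over the 30 arrays had a median of -0.29 in the 200 genes and 0.01 in the 3411, and 176 of the 200 (88.0%) lay within 1 of the reference against 76.3%. Called below the reference were genes with a mean of -1 or less and all arrays below 0: 24 of the 200 (12%) against 8.47% of the 3411 and 7.94% of all 11822 genes above background. The condition on all arrays favours genes of small spread, which these were chosen to be: with the mean alone, the same 24 (12%) were at -1 or less against 13% of the 3411. No gene of the 200 was above the reference by the same rule against 4.08% and 5.47%. With no minimum size, 7 of the 200 (3.5%) were above 0 on all arrays against 6.07% of the 3411 and 55 (27.5%) were below 0 on all arrays against 11.2%, counts to which the same condition applies. The count below also depends on the scaling, since centring each array on its median moved the median of the 3411 genes to -1.0 and that of the 200 to -1.31, with 135 then called against 34.8%. Taken relative to the median of the 3411, 24 of the 200 lay at least 1 lower (12% against 13%), with 29 after median centring (14.5% against 14.3%) and 23 from the processed signals (11.5% against 14.5%), so the share was near that of all genes. On the upper side 0 of the 200 lay at least 1 above that median by loess, 1 after median centring and 0 from the processed signals, against 10.5%, 13.1% and 12.8% of the 3411. With no array of the 30 left out, or with any 1 left out, the count below was 24. The reference is 1 pool of RNA from cultured cells, so no test against it was made.

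Snrpa1 was the lowest against the reference, with ratios from -2.71 on a large intestine array through a median of -1.97 to -1.33 on a cerebellum array, a mean 3.99-fold below it. Erh, a small conserved nuclear protein that binds splicing proteins, had a mean of -1.58, with all arrays between -1.94 and -1.04. Exosc2 had a mean of -1.57 (from -2.04 to -0.93) and Cct2, a subunit of the chaperonin that folds actin and tubulin, -1.56 (from -2.27 to -0.85). Hnrnpll, a regulator of alternative splicing, had -1.50 and Kdm1a -1.49. After median centring, which lowers all genes, the 6 lay between -2.18 and -1.64 relative to the median of the 3411. Of the 24 genes called below it, 8 belonged to the splicing list. That is 30.8% of its 26 chosen genes, while 31 of all 117 genes of the list (26.5%) had a mean of -1 or less. Its chosen genes had a median ratio of -0.49, close to the -0.56 of all 117 genes of the list. At the other end Ubl5 had a mean of 0.84, between 0.32 on a fat array and 1.17 on a small intestine array, Phkg2, the catalytic subunit of a phosphorylase kinase, 0.84 (from 0.28 to 1.54), Leng8 0.84 (from 0.11 to 1.35), and Abhd4, a lipid hydrolase, 0.75 (from -0.04 to 1.73). The sign of these 4 means turned with median centring, to -0.45 for Ubl5, -0.18 for Phkg2, -0.08 for Leng8 and -0.29 for Abhd4, where relative to the median of the 3411 genes they lay between 0.55 and 0.92 above.

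**Figure D5:**
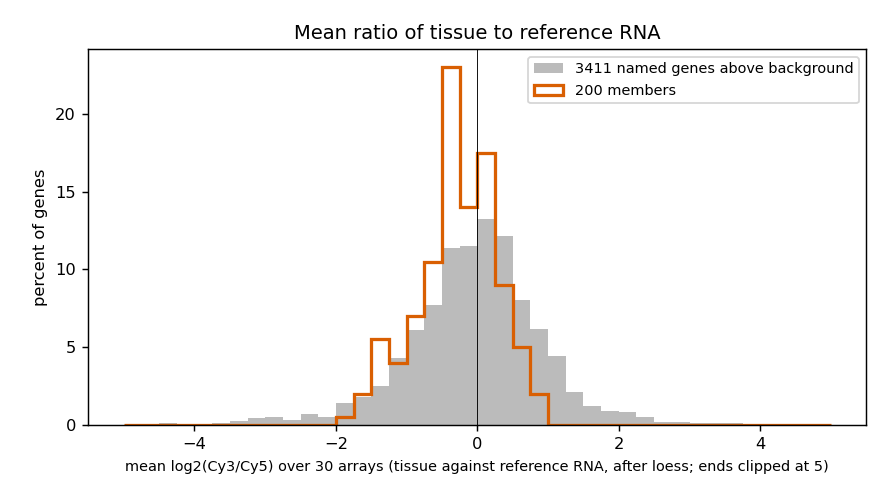
Distribution of the mean log2(Cy3/Cy5) over the 30 arrays (horizontal axis) as the percentage of genes per bar (vertical axis), with an outline for the 200 chosen genes (the members) and a grey area for the 3411 genes that could be chosen, these included. The chosen genes have means between -1.99 and 0.90, and none is called above the reference while 24 are called below it.

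The promoters of the chosen genes were compared with others over 300 bases, from 250 before to 50 after the start in RefSeq. Of the 200 genes 162 had such a sequence, besides 2499 of the other genes that could be chosen and 17492 protein coding genes in all. The ETS core was present on either strand in 61 of the 162 promoters (37.7%), in 23.6% of the other genes that could be chosen and in 11.9% of all. Among the 12 genes with the lowest SD it was found in 7 of the 11 with a sequence. Of the genes with a sequence that come next, from Abt1 to Med20, only Erh, Rbm42, Polr2j, Ccnt1 and Hif1an held it. In the splicing list it was found in 9 of 20 chosen genes and 31 of 95 genes of the list. The other larger lists varied: the RNA polymerase II list had it in 7 of 12 chosen genes and 16 of 46 in all, the proteasome in 2 of 6 and 10 of 26, the ubiquitin enzymes in 4 of 9 and 22 of 77, the chromatin proteins in 2 of 8 and 9 of 43, the zinc finger proteins in 0 of 5 and 12 of 62, and vesicle transport in 2 of 5 and 26 of 78. The translation factors had it in 1 of 2 chosen genes and 13 of 36 in all (36.1%). Lists with 1 chosen gene or none held it in 8.33% of the standard genes for expression (1 of 12), 40% of the mitochondrial ribosome, 34.3% of cell division, 31.8% of the cytosolic ribosome, 29.7% of the transporters and 27.3% of the respiratory chain, beside 32.6% of the splicing list. Its first base had a median position of -31 in the chosen genes and of -28 in the others. The ratio of observed to expected CpG had a median of 0.869, 0.805 and 0.576 in the 3 sets, and it was 0.6 or more in 86.4%, 78.7% and 48.3%. The TATA box, counted at any position of the 300 bases and on either strand, was found in 5 of the 162 (3.09%, against 6.44% and 13.3%), with Psmb4 among those that held it. The GC box was found in 63.0%, 64.7% and 46.3%, and the CCAAT box in 32.1%, 40.5% and 39.0%. The NRF1 site GCGCATGC was found in 6.17%, 6.44% and 3.61%, and the E box CACGTG in 8.64%, 11.4% and 7.90%. The YY1 site AAGATGGC was found in 6.79%, 6.28% and 3.22%, the CRE TGACGTCA in 3.7%, 3.64% and 2.34%, and the THAP11 site ACTACAA in 7.41%, 4.8% and 3.84%. The motifs were listed after the genes were known, no set was tested against another, and the names of the genes that could be chosen are not a random sample. The study reports motifs of GABP, a factor of the ETS family, as over-represented in non-responsive genes with CpG islands. Names from the list of least responsive genes are more frequent among the 200. The promoter shares were not taken within that list, so evenness and low response cannot be told apart here.

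For 4 of the 200 genes a second probe of the same symbol, outside the value table, was well above background on all arrays. Its level was computed here from the processed signals, as log2 of Cy3 less the deviation of log2 Cy5 from its mean over the arrays, the form that the table values were found to follow. None of the 4 second probes was within the limit of 0.316. Adrm1 had an SD of 0.285 by the probe that chose it and of 0.741 by the other, which read 9.22 and 9.14 in eyes and 12.28 and 12.31 in muscle. Actr10, a subunit of dynactin, had 0.304 and 0.661, the second probe reading 9.66 and 8.99 in lung and 12.09 and 12.03 in muscle. Abhd4 had 0.314 and 0.45, and Babam1, a subunit of the BRCA1-A complex, 0.244 and 0.405. Of 135 second probes of other genes 2 were within the limit, and their median SD was 0.696. Probes were chosen for a low value in the one case and not in the other, and whether the probes of a gene read the same transcripts was not tested.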

How the data were processed

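Spot files and the value table of the authors were used. The authors read two-colour Agilent arrays with Feature Extraction 9.5.1.1. Their deposited spot tables give mean and processed signals as intensity in scanner units, and flags (other). The authors' value table is on a log10 scale. Over 11751 genes its slope was 0.998 on processed Cy3 and -0.996 on the deviation of Cy5 from its mean (R2 0.9999), and it was converted to log2 here. How the authors adjusted it is not given in the sources used here. It held 0 columns of other samples and no columns of comparisons.

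Ratios were computed from mean signals by normexp (offset 50) and loess. Control spots were left out, as were 475 outlier spots (0.0377%). Fits used R 4.3.3 and limma 3.58.1, a coefficient for each tissue (15 residual and 2.95 prior degrees of freedom) and Benjamini-Hochberg adjustment over 21025 genes with Cy3 above background on both arrays of a tissue, and other values Python 3.11.15. The code was tested on simulated data. The number of arrays limits the precision.

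Symbols came from the study's probe lists, held in part, and 150 of the 200 were current in RefSeq, 45 were synonyms and 5 had no match. Named are the 12 genes with the lowest SD, the 6 lowest and 6 highest against the reference, the 6 with the largest F, 3 on either side of the limit and, in each list, the 3 of the 200 with the lowest SD (fewer where it holds fewer). RIKEN clone names were passed over, and other genes were named after their values were seen. The 200 genes and the lists were chosen with earlier results of these data known. Alternatives were other values, scalings, filters, measures of evenness, blocks for slide (11), scan day (5) and replicate number, and leaving out arrays.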

Additional observations from a re-analysis of the deposited data

How the results depend on the processing

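The median SD among tissues of the 200 genes was 0.435 and that between replicates 0.201 from the processed Cy3 signal alone, without the adjustment for the reference. A list of 200 chosen anew shared 67 genes with the list described when chosen from that signal, 78 by the median absolute deviation, 122 from all probes with or without a name, and 131 without fat, bone and large intestine. It shared 138 genes when chosen from loess ratios and between 150 and 200 under the other measures and scalings. The 200 came from the ratio of processed signals, which the table values follow almost exactly, so that overlap was fixed beforehand. With no minimum size 7 genes were above the reference (3.5%, against 6.07% of the 3411 genes that could be chosen) and 55 below it (27.5% against 11.2%), and median centring gave 135 below it (67.5% against 34.8%). Leaving out 1 array at a time gave 123 to 181 genes past the F-test (93.1% to 98.7% of the 3411), a median SD of 0.263 to 0.307 among tissues and 0.088 to 0.097 between replicates, 151 to 197 genes shared, 0 above the reference and 24 below it. The cause of these differences was not tested.

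With the replicate number as a block 147 of the 200 genes passed the F-test against 141 without it (96.0% and 95.5% of the 3411). The deviations of same-numbered arrays correlated between -0.36 and 0.457 over 105 pairs of tissues, with a median of 0.088 and 46 above 0.1. Not every pair was above 0.1, and the numbers were not taken to pair the arrays. This does not exclude that tissues shared an animal, which the labels do not settle. With slide as a random block 152 passed (95.8%), and the correlation estimated between arrays of the same slide was 0.692. The main F-test and the spreads between replicates took the arrays as independent of slide. With slide as a fixed block 170 passed (97.7%) and with scan day 171 (98.1%), but these fits kept 11 and 13 of the 14 degrees of freedom among tissues, so they do not test the same 15 tissues. Other settings of the F-test left the count within 1.5 times of 141. With a background offset of 16, 130 passed (94.6%).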
